A study of Mus musculus with 4 samples.

Results

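The genes described here are 10 genes of striated muscle that were read in RNA of the mouse stomach: Acta1, Myl1, Tnnt3, Mb, Mylpf, Tnnc2, Eno3, Csrp3, Ttn and Ckm. They are 10 of the 13840 genes for which the array had a probe with exactly 1 gene symbol, and they have 12 such probes among them. The 10 were chosen from this same comparison, with the strain difference known, so that difference is given for them as a description and without a test. The arrays hold stomach RNA of male mice of 2 strains, fed chow and without food for 4 h before the stomach was taken. One strain was the wild type, labelled C57BL/6J, and the second, labelled B6.CAST-17, was congenic and homozygous; by its name, it has the background of the first and CAST material on chromosome 17. Each strain gave 2 pools, each of RNA from 3 animals, so 6 animals per strain stand behind 4 arrays. Neither the animals' age nor the extent of the segment is stated in the labels. None of the 10 genes lies on chromosome 17.

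Striated muscle, the muscle of skeleton and heart, shortens by sliding thin filaments of actin along thick filaments of myosin inside repeating units called sarcomeres. Calcium starts each contraction by binding the troponin complex on the thin filament, and creatine kinase and glycolysis help to supply the ATP. The wall of the stomach is built of smooth muscle, which uses other actins and myosins and has no troponin, while the mouse oesophagus, which opens into the stomach, has striated muscle in its wall.

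The signal is the authors' normalized value per probe on a log scale, taken as log2 from its range, and a difference is congenic minus wild type. Between 16320 and 16954 of 33012 probes had a value per array, 13475 had one on all 4, and the medians of the arrays over these lay between 12.819 and 12.824. Pearson's r across these probes was 0.991 between the congenic pools, 0.988 between the wild-type pools and 0.983 to 0.986 between strains, and probes are not independent replicates. Of the stomach's defining markers, the proton pump subunits of acid-secreting parietal cells were bright on all arrays, Atp4a (19.51 to 19.77 on the 4 arrays) and Atp4b (18.74 to 18.82). A blank cell is not read as an absent transcript, because no source used here says when a cell was left blank. Levels of different probes are not read as relative amounts of transcript, since brightness also depends on the probe. They are used as signal alone where blanks are matched or ranked by level and where a list's signals are summed. Of the 10 genes, 7 had a probe with a value on all arrays, and Ttn, Csrp3 and Eno3 had values in the wild-type pools alone.

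Promoters are where muscle regulators bind. For all 10 genes both congenic pools were below wild type or blank, and whether promoters have a part in this was not tested. No promoter stretch was available for Tnnt3, and those of Mb, Csrp3 and Ttn were searched but are not shown. The stretches before the transcription starts of the other 6 genes are shown. Each is 250 bases long, taken from RefSeq on build GRCm38.p6, written 5′ to 3′ on the gene's strand and ending at the base before the start. Capitals mark matches to 4 motifs known from muscle promoters, searched on both strands: the E-box CANNTG, bound by the MyoD family, the MCAT element CATTCC, bound by TEAD factors, and the CArG box and the MEF2 site, bound by SRF and by MEF2 factors. The windows are, on the minus strand, Acta1 chr8:123894776-123895025, Myl1 chr1:66945057-66945306, Tnnc2 chr2:164779735-164779984, and, on the plus strand, Mylpf chr7:127211358-127211607, Ckm chr7:19410844-19411093, Eno3 chr11:70656926-70657175.
Acta1: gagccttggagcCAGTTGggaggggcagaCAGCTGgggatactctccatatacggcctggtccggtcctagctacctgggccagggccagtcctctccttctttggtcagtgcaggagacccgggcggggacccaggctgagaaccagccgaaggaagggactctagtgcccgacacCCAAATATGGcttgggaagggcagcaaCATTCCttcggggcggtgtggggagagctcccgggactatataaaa
Myl1: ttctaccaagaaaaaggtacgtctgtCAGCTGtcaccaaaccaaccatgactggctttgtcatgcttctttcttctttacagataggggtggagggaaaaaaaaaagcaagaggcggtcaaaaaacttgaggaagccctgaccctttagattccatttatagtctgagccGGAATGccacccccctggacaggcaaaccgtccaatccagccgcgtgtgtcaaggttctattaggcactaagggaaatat
Tnnc2: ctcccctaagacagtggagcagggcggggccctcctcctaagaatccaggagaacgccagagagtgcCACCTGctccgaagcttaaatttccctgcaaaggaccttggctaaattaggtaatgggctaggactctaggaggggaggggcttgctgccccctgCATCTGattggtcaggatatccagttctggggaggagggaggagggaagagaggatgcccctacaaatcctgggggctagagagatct
Mylpf: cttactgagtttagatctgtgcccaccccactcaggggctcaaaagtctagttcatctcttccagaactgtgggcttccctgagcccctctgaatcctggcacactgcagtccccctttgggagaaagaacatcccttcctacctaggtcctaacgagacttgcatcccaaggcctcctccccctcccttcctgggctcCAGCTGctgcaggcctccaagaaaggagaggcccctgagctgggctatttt
Ckm: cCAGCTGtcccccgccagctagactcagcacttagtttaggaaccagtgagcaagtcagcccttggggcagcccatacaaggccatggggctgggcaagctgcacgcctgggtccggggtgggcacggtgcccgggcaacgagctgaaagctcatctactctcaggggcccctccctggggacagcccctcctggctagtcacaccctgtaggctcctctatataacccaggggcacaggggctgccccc
Eno3: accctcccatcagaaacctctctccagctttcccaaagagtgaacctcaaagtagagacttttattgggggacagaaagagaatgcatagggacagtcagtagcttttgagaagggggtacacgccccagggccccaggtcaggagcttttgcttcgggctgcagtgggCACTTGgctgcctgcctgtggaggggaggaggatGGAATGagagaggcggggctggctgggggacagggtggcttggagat

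Every window shown has at least 1 E-box, which was also true of all 12 windows in the table for 9 of the 10 genes, and of 66.2% of all 32851 windows of the same length. The CArG box occurred in 1 of the 9 genes, at 73 to 64 bases before the start of Acta1, and in 1.47% of all windows. The MCAT element occurred in 3 of the 9, Acta1, Myl1 and Eno3, and in 12.6% of all windows. The MEF2 site occurred in 1, Ttn, and in 2.92% of all windows. No motif was found to overlap another in the windows shown. These are matches of letters, not shown sites of binding, and enhancers farther away were not searched.

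The thin filament members were lower in both congenic pools than in both wild-type pools. Acta1 encodes the alpha-actin of skeletal muscle, the backbone of the thin filament. Its signal was 14.53 and 14.52 in the congenic pools and 16.12 and 16.09 in the wild-type pools. The pools of each strain were nearly alike and the strains lay 1.56 apart at their closest. The difference was -1.58 ± 0.070 (SE, n = 2 pools per strain here and below), which left 33.4% of the wild-type signal. Tnnt3 encodes the fast skeletal troponin T, which ties the troponin complex to tropomyosin. It read 12.30 and 12.26 in the congenic pools and 13.33 and 13.60 in the wild-type pools, without overlap. The difference of Tnnt3 was -1.18 ± 0.13, or 44.0% of wild type. Tnnc2 encodes the fast skeletal troponin C, the calcium sensor of the complex. It read 12.64 and 12.87 in the congenic pools against 13.71 and 13.59 in the wild-type pools, again without overlap. The difference of Tnnc2 was -0.90 ± 0.12, or 53.7% of wild type. In a pooled tissue RNA, fewer muscle fibres and less RNA per fibre cannot be told apart.

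The thick filament members were the fast myosin light chains, small subunits at the neck of the myosin head. Myl1, an alkali light chain, read 11.76 and 12.16 in the congenic pools and 13.64 and 13.77 in the wild-type pools. The strains did not overlap, and the congenic pools differed from each other by 0.40. The difference between strains was -1.74 ± 0.16, or 29.9% of wild type. A second probe of Myl1 had a value on 1 array, wild-type pool 2, where it was 10.33, so the other 3 arrays give no check of the first probe. Mylpf, the phosphorylatable fast light chain, read 11.17 and 11.24 in the congenic pools and 12.43 and 12.15 in the wild-type pools. Its congenic values were both below its wild-type values, with a difference of -1.08 ± 0.16, or 47.3% of wild type. The giant spring protein titin, encoded by Ttn, spans the sarcomere from Z disc to the thick filament's centre. Its first probe read 10.47 and 10.87 in the wild-type pools and was blank in both congenic pools, and its second probe was blank on all arrays. Csrp3 encodes a muscle LIM protein of the Z disc. It read 10.77 and 10.91 in the wild-type pools and was blank in both congenic pools.

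The members that supply energy and oxygen differed most among themselves. Mb encodes myoglobin, the oxygen store of oxidative muscle fibres and of heart. It read 10.71 and 10.22 in the congenic pools and 11.86 and 12.60 in the wild-type pools. No value of one strain reached the other, but the wild-type pools were 0.74 apart. The difference of -1.77 ± 0.30 had the largest size and the largest error of the 7. Ckm encodes the cytosolic creatine kinase of muscle, which regenerates ATP from phosphocreatine. It read 13.17 and 13.24 in the congenic pools against 13.60 and 13.56 in the wild-type pools. The strains did not overlap, and the difference, -0.38 ± 0.092 or 77.1% of wild type, had the smallest size of the 7. Eno3 encodes the beta-enolase of muscle, a glycolytic enzyme. It read 13.22 and 13.29 in the wild-type pools and was blank in both congenic pools.

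**Figure D1:**
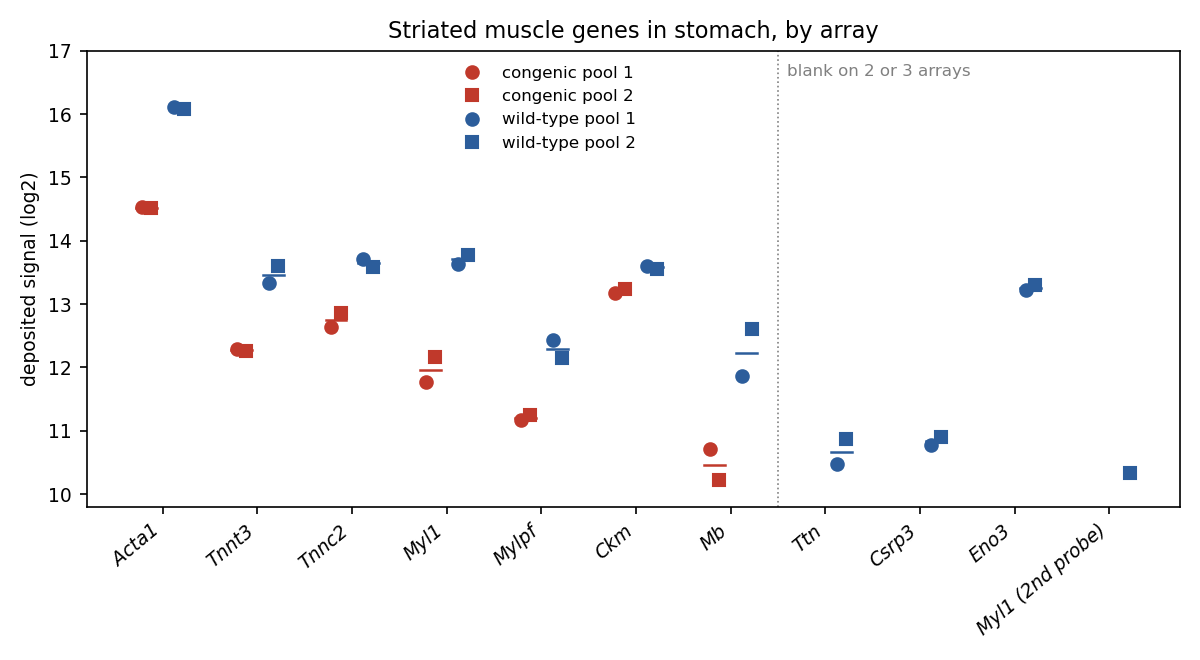
Deposited log2 signal of the 11 probes with any value, with red marks for congenic and blue for wild-type pools, circles for pool 1, squares for pool 2 and bars at the mean of 2 pools. For the 7 genes left of the dotted line both congenic pools lie below both wild-type pools, and to its right no congenic pool has a value.

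In all 7 genes with values on all arrays both congenic pools lay below both wild-type pools, as they did for 26.1% of all 13475 probes. The median of the 7 differences was -1.18, against -0.0020 over all probes, of which 50.4% were negative. The genes were picked from this contrast, so these values describe the choice and nothing is read from them. For genes that are not among the 10, the same contrast was tested below in a limma fit over all probes with Benjamini-Hochberg adjustment, in which 64 of the 13475 probes passed an adjusted p of 0.05 (0.475%).

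The difference between pools of 1 strain was not used in the choice of genes. Across the 7, congenic pool 2 minus pool 1 ran from -0.49 (Mb) to 0.40 (Myl1), with 3 negative and a median size of 0.071. Wild-type pool 2 minus pool 1 ran from -0.28 (Mylpf) to 0.74 (Mb), with 4 negative and a median size of 0.14. Over all probes the median sizes were 0.13 in both strains. The sign was not shared by the 7 genes in either strain. In wild type, Mb, Tnnt3 and Myl1 were higher in pool 2 while Mylpf, Tnnc2, Ckm and Acta1 were higher in pool 1. With 2 pools per strain these values have no test.

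**Figure D2:**
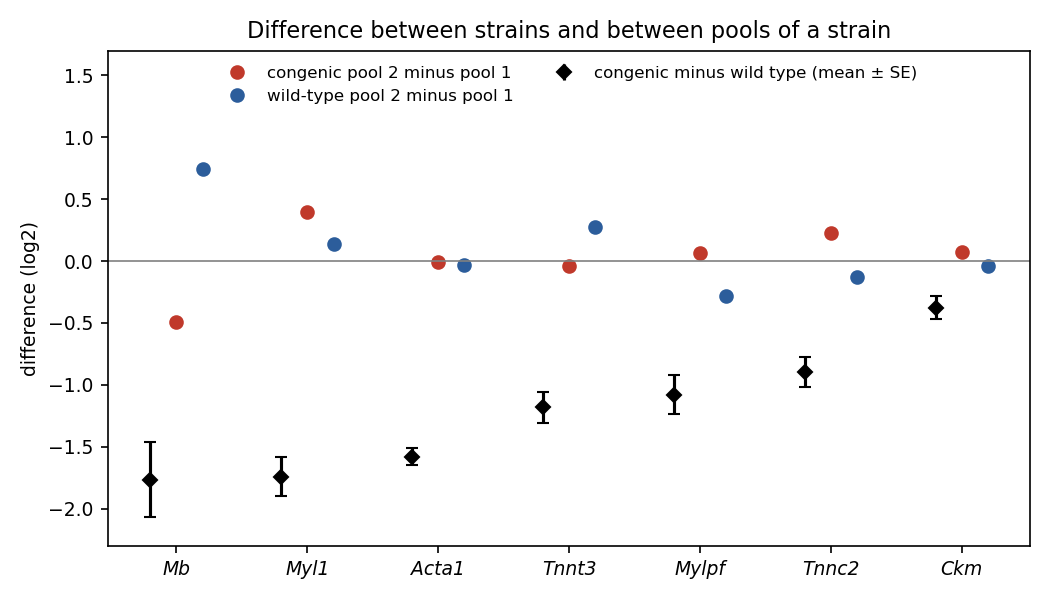
Log2 difference per gene: black diamonds give congenic minus wild type ± SE, red dots congenic pool 2 minus pool 1 and blue dots wild-type pool 2 minus pool 1. The strain difference is negative in all 7 genes, whereas the pool differences fall on both sides of 0, with 3 of 7 congenic and 4 of 7 wild-type values negative.

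Ttn, Csrp3 and Eno3 shared the pattern of a value in both wild-type pools and in neither congenic pool. It occurred for 198 of 33012 probes (0.600%), and the opposite pattern for 419. No fold was computed, because a blank has no value. The pattern was more frequent for dim probes: it held for 11.7% of probes whose wild-type mean was from 9 to 10, for 3.92% from 10 to 11 and for 0.0449% from 13 to 14. Within 0.25 of the wild-type mean of Ttn, 39 of 1099 probes had it, and within 0.25 of that of Csrp3, 27 of 1169 did. Within 0.25 of the mean of Eno3 (13.26), Eno3 was the 1 probe of 1153 that did. Eno3 had the highest wild-type mean of all 198, ahead of a probe with no gene name (12.92) and of Appl1 (12.36), which encodes a signalling adaptor. No second Eno3 probe was present to check it. Ttn, Csrp3 and Eno3 were picked with the strain contrast known, so these shares and ranks describe the choice and nothing is read from them.

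**Figure D3:**
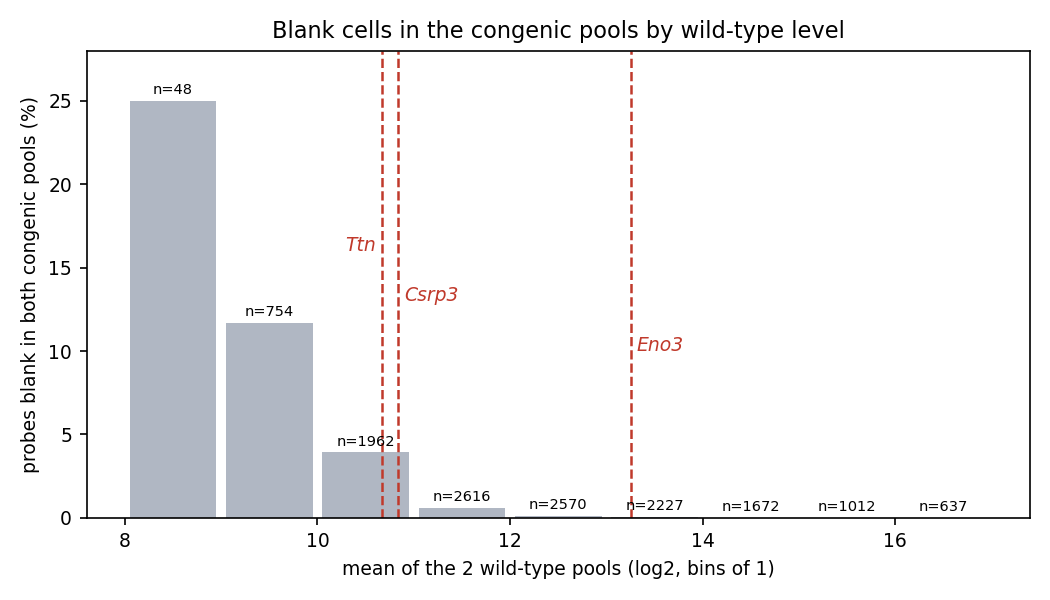
Share of probes, among those with a value in both wild-type pools, that were blank in both congenic pools (percent, by wild-type mean in bins of 1 log2, with the number of probes above each bar, bins from 8 to 17 drawn); dashed lines mark the wild-type means of Ttn, Csrp3 and Eno3. The share falls from 11.7% at 9 to 10 to 0.0449% at 13 to 14, where Eno3 lies.

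Other genes of striated muscle, which are not among the 10, differed by -0.67 (Pygm) to 0.49 (Tead4). Of 135 genes in 7 lists of sarcomere, calcium, energy, regulator and membrane genes, 100 had a probe, 42 had values on all arrays and 29 were blank on all arrays. None of the 42 passed over all probes in limma. An unadjusted p under 0.05 was reached by 13 of them, 12 lower and 1 higher, or 31.0%, against 15.8% of all probes. Of all 7682 named genes measured, 16.1% reached it, 766 lower and 471 higher. Among marker lists it was 88.2% for exocrine pancreas, 66.7% for liver, 41.7% for smooth muscle, 37.5% for cardiac muscle and 33.3% for squamous epithelium. For parietal cells it was 20.0%, for adipocytes 16.7%, and for slow fibres and nerve 0%. The 1 measured red cell gene reached an unadjusted p under 0.05. The median difference of the 42 was -0.20, with 29 of 42 negative (69.0%), against 53.9% of all named genes. Without wild-type pool 2, 1 of the 42 passed, Pln, an inhibitor of the calcium pump, which rose in that fit but read 11.60 and 13.45 in the wild-type pools and 12.77 and 12.94 in the congenic pools. In no other fit did any pass.

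The medians of the 7 lists lay on both sides of 0. Of 10 measured genes of muscle energy supply, 9 were negative and 4 had an unadjusted p under 0.05, with a median of -0.37. The lowest p belonged to Fabp3, the fatty acid binding protein of heart and muscle, which read 16.16 and 16.03 in the congenic pools and 16.63 and 16.69 in the wild-type pools (-0.56 ± 0.079, limma adjusted p = 0.0673). Pygm, the muscle glycogen phosphorylase that frees glucose units, differed by -0.67 ± 0.15 (limma adjusted p = 0.1773). Slc2a4, the insulin-responsive glucose transporter, differed by -0.46 ± 0.11, and Cox8b, a cytochrome oxidase subunit, by -0.53 ± 0.13. Of 6 measured Z disc and upkeep genes all were negative, with a median of -0.26. Hspb7, a small heat shock protein of muscle, read 12.79 and 12.96 against 13.41 and 13.44 (-0.55 ± 0.11, limma adjusted p = 0.1442). Des, the intermediate filament desmin (-0.27 ± 0.080), Cryab, a small heat shock protein (-0.27 ± 0.077), and Pdlim3 (-0.25 ± 0.070) also had an unadjusted p under 0.05. Several of these are not limited to striated fibres, since desmin is made by smooth muscle and Slc2a4 by fat.

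Of 6 measured thin filament genes 5 were negative, with a median of -0.26. Tnni2, the fast skeletal troponin I and the partner of Tnnt3 and Tnnc2 in the complex, read 14.84 and 14.85 in the congenic pools and 15.04 and 15.27 in the wild-type pools. Its difference of -0.31 ± 0.097 (limma adjusted p = 0.2418) kept the strains apart, beside -1.18 and -0.90 for its partners, which were chosen for their difference. The cardiac troponin I gene Tnni3 differed by -0.44 ± 0.075 (limma adjusted p = 0.1141), and Tpm1, a tropomyosin that smooth muscle makes as well, by -0.20 ± 0.11. Tnnc1, the slow and cardiac troponin C, read 11.01 and 10.44 against 11.07 and 11.23 (-0.42 ± 0.25). Among the 7 measured thick filament genes 5 were positive and the median was 0.23. Myl2, the regulatory light chain of slow fibres and heart, read 15.51 and 15.60 in the congenic pools and 15.45 and 15.21 in the wild-type pools (0.23 ± 0.10, limma adjusted p = 0.3426). Myl7, an atrial light chain, differed by -0.36 ± 0.16 and Myom1, a protein of the sarcomere's M line, by -0.31 ± 0.12. The difference of Myh6, a cardiac myosin heavy chain, was 0.30 ± 0.18. The light chains outside the 10 thus lay on both sides of 0, and none passed.

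Of 5 measured calcium-handling genes 3 were negative. Sln, a small inhibitor of the calcium pump, differed by -0.58 ± 0.23 (limma adjusted p = 0.3052), Tmem38a by -0.47 ± 0.21, Casq2, the cardiac calcium store protein, by -0.21 ± 0.11 (second probe -0.45 ± 0.18), and Cacnb1, a calcium channel subunit, by 0.15 ± 0.18. Of 5 measured genes of the neuromuscular junction and sarcolemma 3 were negative, among them Cav3, the muscle caveolin (-0.41 ± 0.22), Chrnb1, an acetylcholine receptor subunit (-0.18 ± 0.13), and Lrp4, the agrin receptor (-0.19 ± 0.31). Sgcb, a sarcoglycan, differed by 0.079 ± 0.16. Of 3 measured regulators, Tead4, a TEAD factor, differed by 0.49 ± 0.14 (limma adjusted p = 0.2091), Mef2d by 0.21 ± 0.10 and Mef2c by -0.013 ± 0.25. Several genes typical of skeletal fibres were blank on all arrays, among them Ryr1, the calcium release channel, Pvalb, parvalbumin, Tcap, the titin cap, Myot, Ldb3, Tnni1 and Mybpc2. Mybph and Mybpc1, myosin binding proteins, had values in both wild-type pools and in neither congenic pool, and Myoz3, Jph2, Musk and Capn3 had the opposite.

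**Figure D4:**
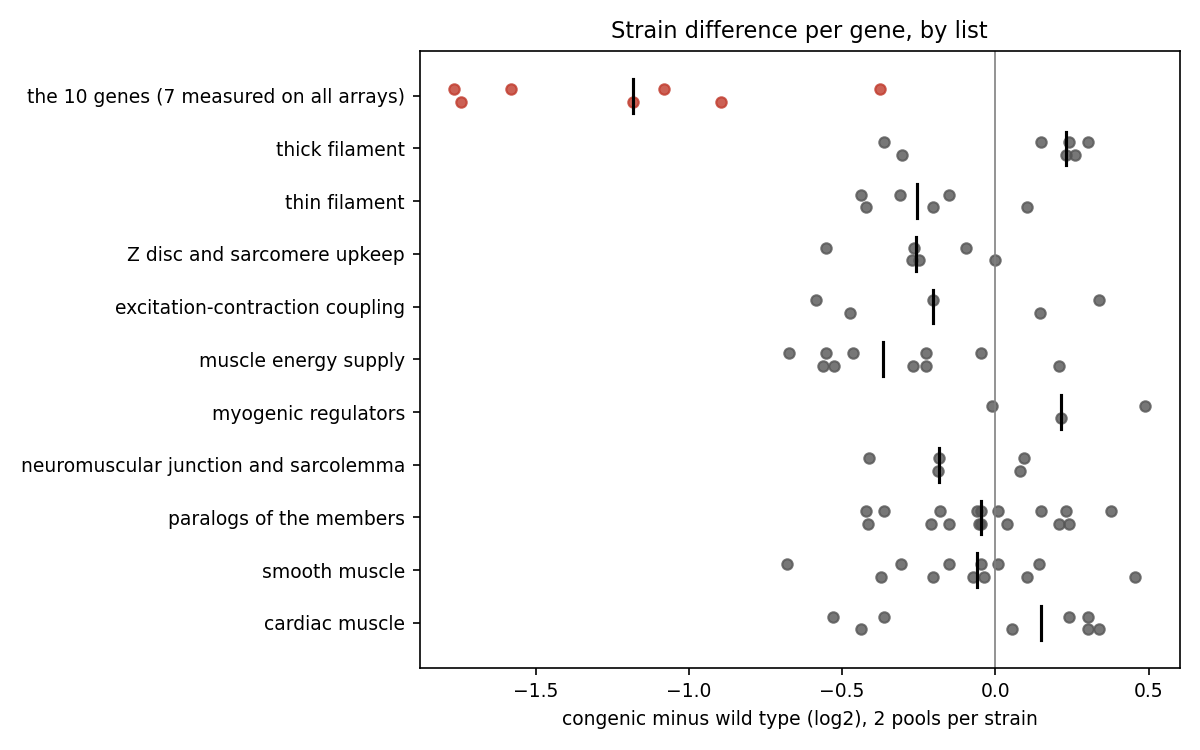
Congenic minus wild type (log2, 2 pools per strain) for each gene measured on all arrays, with 1 dot per gene and a black line at the list's median; the 7 measured of the 10 genes, which were chosen for this difference, are in red. Their median is -1.18, and the medians of the other 10 lists drawn run from -0.37 for muscle energy supply to 0.23 for the thick filament.

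Close relatives of the 10 genes did not pass. Of 33 paralogs, 25 had a probe and 17 had values on all arrays. In limma none of the 17 passed and 1 reached an unadjusted p under 0.05, while 10 were negative and the median was -0.047. Over all probes 0.475% passed and 15.8% reached that unadjusted p, and 53.9% of all named genes were negative. With so small a share passing, 0 of 17 is no result about the paralogs. Beside Acta1, Acta2, the alpha-actin of smooth muscle, read 16.14 and 16.22 in the congenic pools and 16.27 and 16.19 in the wild-type pools (-0.046 ± 0.074). Actg2, the gamma-actin of gut smooth muscle, differed by -0.15 ± 0.075, and Actg1, a cytoplasmic actin, by -0.047 ± 0.11 at its brighter probe. The second Actg1 probe read 17.62 and 17.55 in the congenic pools and 17.87 and 17.96 in the wild-type pools (-0.33 ± 0.076, limma adjusted p = 0.1773), so the probes of this gene disagree. Actc1, the cardiac actin, was blank in congenic pool 1 and read 10.58 in congenic pool 2 against 11.60 and 11.66 in wild type. Beside Ckm, the brain-type creatine kinase Ckb differed by -0.060 ± 0.077 at its brighter probe and -0.18 ± 0.084 at the other, and the mitochondrial forms Ckmt1 by -0.055 ± 0.075 and Ckmt2 by 0.21 ± 0.22. Beside the light chains, Myl6, which smooth muscle uses, differed by -0.18 ± 0.094, Myl3 by 0.15 ± 0.21 and Myl4 by 0.24 ± 0.29. Calm2, a calmodulin related to troponin C, differed by -0.21 ± 0.087 at its brighter probe and by -0.013 ± 0.10 at the other, and Calm3 by 0.039 ± 0.068. Beside Mb, the neuronal globin Ngb read 11.25 and 11.28 against 11.57 and 11.78 (-0.42 ± 0.16, limma adjusted p = 0.3001) and was the 1 of the 17, each read from its brightest probe, with an unadjusted p under 0.05. Beside Ttn, Mylk, the kinase of smooth muscle myosin, differed by 0.010 ± 0.15 and Speg by 0.38 ± 0.39. Eno2 was blank on all arrays. The probes' sequences were not used here, so whether a probe reads more than its own gene was not tested.

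Markers of other tissues were read beside the 10 genes. Of 20 smooth muscle genes 12 were measured and none passed in limma, with 5 at an unadjusted p under 0.05 and a median of -0.060. Their summed signal was 20.70 to 20.72 in the congenic pools and 20.83 to 20.84 in the wild-type pools (log2). Hspb6 (-0.37 ± 0.071), Smtn (-0.31 ± 0.077), Vcl (-0.68 ± 0.20), Tagln (-0.20 ± 0.077) and Cald1 (0.46 ± 0.15) had the lowest p. For cardiac muscle 8 of 15 genes were measured, none passed and 3 had an unadjusted p under 0.05. Of the 8, 3 were negative, and the median was 0.15. The summed signal was 16.65 to 16.72 against 16.89 to 16.91, with Tnni3, lower in the congenic pools, as its brightest gene. Nppa, the atrial natriuretic peptide, differed by 0.30 ± 0.12 and Gata4, a transcription factor, by -0.53 ± 0.12, while Mybpc3, Ryr2, Tbx5 and Nppb were blank on all arrays. Of 10 slow-fibre genes 4 were measured and none passed, with a median of -0.028, a summed signal of 16.45 to 16.76 against 16.36 to 16.56, and Myh7 and Tnni1 blank on all arrays.

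For the squamous lining that forestomach and oesophagus share, 15 of 20 genes were measured, none passed, 5 had an unadjusted p under 0.05, and the summed signal was 21.77 to 21.80 in the congenic and 21.78 to 21.81 in the wild-type pools. Of the 5, 4 were lower and 1 higher, and the median of the 15 was -0.12. Tgm3, a transglutaminase of the cornified layer, had the lowest p (-0.50 ± 0.13). Next by p came Sprr1b (-0.32 ± 0.11), Sprr1a (-0.20 ± 0.071) and Sprr3 (0.22 ± 0.078), the 1 that was higher. The keratins ran from Krt5 (-0.24 ± 0.093) through Krt14 (-0.21 ± 0.090), Krt15 and Krt4 to Krt13 (0.023 ± 0.092) and Krt6a (0.11). Of the 15, 9 were negative, and the most positive were Sbsn (0.65 ± 0.39) and Ivl (0.33 ± 0.16). Of 15 adipocyte genes 6 were measured and none passed, with 1 at an unadjusted p under 0.05, Fabp4 (-0.45 ± 0.087). Of the 6, 3 were negative, and the median was -0.026. Pparg (0.23 ± 0.15), Slc36a2 (-0.45 ± 0.33) and Car3 (-0.058 ± 0.073) came next by p. The summed signal was 18.42 to 18.48 against 18.47 to 18.66, and Lep, Retn, Cidea and Ucp1 were blank on all arrays. Of 12 nerve genes 2 were measured and none passed, with 0 at an unadjusted p under 0.05 and sums of 12.80 to 12.87 against 12.77 to 12.80. In the parietal list 5 of 8 were measured and none passed, with 1 at an unadjusted p under 0.05 and sums of 20.44 to 20.45 against 20.53 to 20.56. The 1 measured red cell gene, Hba-a1, differed by -0.21 ± 0.072 (limma adjusted p = 0.2669).

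Some pancreas and liver markers were higher in the congenic pools. Of 26 exocrine pancreas genes 17 were measured, of which 10 rose and 0 fell (Cela2a, Cela3b, Reg1, Cpa1, Ctrb1, Cpb1, Amy2a5, Prss1, Cel and Prss3) and 7 did not pass, among them Pnliprp2 (-0.22 ± 0.11) and Clps (-0.086 ± 0.14), with a median of 0.99 and a summed signal of 21.46 to 21.48 in the congenic and 21.05 to 21.09 in the wild-type pools. Of 17 liver genes 12 were measured, of which 2 rose (Alb and Hpx), 0 fell and 10 did not pass, among them Apoa1 (0.055) and Ttr (0.050), with a median of 0.60 and sums of 18.77 to 18.86 against 18.67 to 18.69. No gene of either list was blank on all arrays. These counts fell without congenic pool 1, when 5 of the 12 genes passed, and without congenic pool 2, when 6 did. Whether tissue make-up differed between the pools, and what part it has in these or in the muscle gene values, was not tested.

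The genes whose pattern over the 4 arrays was nearest to the mean pattern of the 7 were taken by a fixed number, the 5 nearest. The mean pattern was -0.63 and -0.60 in the congenic pools and 0.57 and 0.66 in the wild-type pools around its own mean, so that the distance mostly picks genes with a strain difference of the size for which the 7 were chosen, and it is no further result about them. By the root mean square distance of values centred on each gene's mean, they were Mtch1, a mitochondrial membrane protein (distance 0.048 log2), Vars, the valine transfer RNA synthetase (0.053), H2-Aa, a class II antigen-presenting chain (0.070), Plin3, a lipid droplet protein (0.084), and Acer1, a ceramidase (0.10), 5 genes of chromosome 17. Tnnt3 lay at 0.071 from the mean pattern and the other 6 members at 0.15 to 0.43. The nearest measured genes on either side of the 10 in gene order, a check chosen after the values were seen, were 20 genes. Of these 0 passed in limma, against 0.475% of all probes. Their differences ran from -0.58 (Rab4a, before Acta1) to 0.48 (Nav2, after Csrp3), with a median of -0.11. Of the 20, 12 were negative, beside 53.9% of all named genes.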

How the data were processed

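The authors' deposited table gives 1 log2 signal per probe and array for stomach RNA, extracted with TRIzol and labelled with digoxigenin, per the labels' protocols. How they normalized, which log base they used and when a cell was left blank is not given in the sources used here. The 4 arrays share a maximum of 21.2, and 93.3% to 94.8% of an array's values recur on another. Every fold rests on base 2. Probes were named through the platform's annotation (14411 of 33012 had 1 symbol).

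Probes with values on all arrays were compared in R 4.3.3 with limma 3.58.1 (eBayes on lmFit, trended prior variance, two-sided, Benjamini-Hochberg over 13475 probes). A run on simulated data required only that a set difference be returned on average, so it does not vouch for the p-values. SE are the fit's. A gene with several probes was read from the one with the highest mean. The 4 arrays limit precision. A p-value sets the strain difference against a variance drawn from the probe's own pools and from the trend over all probes. The spread between animals within a pool is not measured. A summed signal is the log2 of a list's summed linear signals, so the brightest probes of a list weigh most in it. The members and lists were chosen with earlier results of these data known. Named by rule were all members, list genes that passed, up to 4 per list by p, measured paralogs, genes present in 1 strain alone and the 5 nearest patterns. Other named genes were chosen after their values were seen. Alternatives were a replicate block, normalizations, a filter on dim probes, no trend, 1 blank allowed, the mean over a gene's probes and leaving out each pool. Figures used matplotlib 3.10.9.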

Additional observations from a re-analysis of the deposited data

How the results depend on the processing

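Because each gene's pools do not overlap between strains, leaving out 1 pool cannot turn the sign of the 7 differences, and the block, the missing trend and the allowed blank leave their size as it is, so these fits say nothing of their stability. Without single pools Mb ran from -2.14 to -1.39, Myl1 from -1.94 to -1.54, Tnnt3 from -1.32 to -1.05 and Acta1 from -1.60 to -1.57, and the median of the 7 from -1.32 to -1.16. Mb and Mylpf fell below the median signal level and had no value under that filter. The 64 probes that passed became 20 without the variance trend, 35 with the replicate number as a block, and 15 to 168 without single pools. The 12 markers of other tissues that passed became 6 without the trend, 9 with the replicate block (Hpx, Cel and Prss3 were lost) and 5 to 16 without single pools. Other striated muscle genes gave 0, and 0 to 1 without single pools; paralogs gave 0 in every fit. With the mean over a gene's probes, Calm2 differed by -0.11. The labels do not say that a pool number marks a shared day or litter, and the pool differences of the strains correlated at -0.064 across probes. With 4 arrays and no measure of background, the values of dim probes and of blanks are the least certain.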
